A study of Homo sapiens with 4 samples.

Results

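To examine how TWEAK signalling relates to the chromatin around its own signalling components, 10 genes were followed across ATAC-seq peak lists of SKBR3 cells: the adaptors TRAF1, TRAF2, TRAF3, TRAF5 and TRAF6, the cellular inhibitor of apoptosis genes BIRC2 and BIRC3, the NF-kB-inducing kinase gene MAP3K14 (NIK), and the IκB kinase genes CHUK and IKBKB. ATAC-seq marks open chromatin by the insertion of adaptors with the Tn5 transposase. SKBR3, a widely used breast cancer line, is HER2-positive, and all 4 libraries came from this line without a genetic change named in the labels. The 2 untreated libraries and the 2 TWEAK libraries were both from cells starved for 8 h in Opti-MEM, and the TWEAK cells then received the cytokine at 10 ng/ml for 48 h, with fresh TWEAK after 24 h. The members were taken by gene name from GENCODE release 44. Peaks of the 4 lists that overlapped by at least 1 bp were merged into sites, and a site was assigned to a gene when it lay within 100 kb of any of its transcription start sites. This gave 402 sites out of 307691 in all, of which 34 lay within reach of both BIRC2 and BIRC3 and were counted once in totals. A window of this size also holds other genes, so the gene that contains or lies nearest to a site is named with it. Coordinates are of hg38.

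TWEAK binds the receptor Fn14, a member of the TNF receptor family that has no enzymatic activity and signals through TRAF adaptors. In resting cells TRAF3 and TRAF2 bring the ubiquitin ligases cIAP1 and cIAP2 (the products of BIRC2 and BIRC3) to NIK, which is then continuously degraded. When a receptor of this family draws the adaptors and cIAPs away, NIK accumulates and activates IKKα (CHUK), the kinase of the non-canonical NF-kB pathway, while IKKβ (IKBKB) serves the canonical pathway. TRAF1, TRAF2 and BIRC3 are also well-known transcriptional targets of NF-kB.

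The sequences below are from the sites on which the results turn, namely the 6 sites near the members that rose with TWEAK, 3 of the 18 gained sites, chosen because they hold an NF-kB match, and the BIRC3 and TRAF3 promoters. Among the best-ranked promoter sites of the members, a motif could be shown in these promoters only. Other TRAF2 sites within 1 kb of a start site also hold an NF-kB match and are not shown. They run 5′ to 3′ on the plus strand of hg38 and reach up to 100 bases to either side of the midpoint of the best-ranked peak, shortened where the window ran into an annotated untranslated region. The 14 gained sites without an NF-kB match and 1 with a match, near IKBKB, are not shown. Capitals mark matches to the NF-kB consensus or to the AP-1 consensus (TGAGTCA or TGACTCA), searched on both strands and independently of each other.
TRAF2 intron, higher with TWEAK, chr9:136882711-136882876: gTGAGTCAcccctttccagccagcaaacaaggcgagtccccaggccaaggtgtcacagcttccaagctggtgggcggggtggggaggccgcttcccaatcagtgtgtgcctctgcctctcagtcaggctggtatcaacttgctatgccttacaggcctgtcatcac
MAP3K14 intron, higher with TWEAK, chr17:45289997-45290197: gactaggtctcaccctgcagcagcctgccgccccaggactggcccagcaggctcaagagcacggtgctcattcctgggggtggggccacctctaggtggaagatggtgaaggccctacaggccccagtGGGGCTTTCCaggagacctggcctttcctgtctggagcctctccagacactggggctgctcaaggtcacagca
MAP3K14 3′ end, higher with TWEAK, chr17:45262807-45263007: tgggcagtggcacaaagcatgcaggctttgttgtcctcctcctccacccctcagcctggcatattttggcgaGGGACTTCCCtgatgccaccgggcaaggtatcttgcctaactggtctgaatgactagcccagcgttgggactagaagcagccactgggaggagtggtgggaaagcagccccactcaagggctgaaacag
MAP3K14 intron near the start, higher with TWEAK, chr17:45312086-45312284: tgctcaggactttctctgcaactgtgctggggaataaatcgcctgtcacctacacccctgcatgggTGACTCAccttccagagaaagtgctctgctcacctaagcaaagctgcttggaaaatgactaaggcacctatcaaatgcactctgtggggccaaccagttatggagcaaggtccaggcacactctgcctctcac
BIRC3 upstream, higher with TWEAK, chr11:102306318-102306518: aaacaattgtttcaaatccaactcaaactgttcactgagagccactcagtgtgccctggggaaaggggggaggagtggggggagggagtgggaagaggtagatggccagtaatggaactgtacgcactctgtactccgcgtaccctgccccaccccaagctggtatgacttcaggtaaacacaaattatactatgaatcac
TRAF6 window in PRR5L, higher with TWEAK, chr11:36420917-36421117: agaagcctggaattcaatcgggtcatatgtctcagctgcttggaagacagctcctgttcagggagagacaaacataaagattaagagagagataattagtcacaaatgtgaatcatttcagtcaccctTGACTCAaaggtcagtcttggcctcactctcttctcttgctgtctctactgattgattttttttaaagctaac
BIRC2 upstream, gained, chr11:102346038-102346238: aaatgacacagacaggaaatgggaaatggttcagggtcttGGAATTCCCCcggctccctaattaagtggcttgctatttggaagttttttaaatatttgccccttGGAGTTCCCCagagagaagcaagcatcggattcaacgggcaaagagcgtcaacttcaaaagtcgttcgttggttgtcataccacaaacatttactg
TRAF2 downstream, gained, chr9:136934601-136934801: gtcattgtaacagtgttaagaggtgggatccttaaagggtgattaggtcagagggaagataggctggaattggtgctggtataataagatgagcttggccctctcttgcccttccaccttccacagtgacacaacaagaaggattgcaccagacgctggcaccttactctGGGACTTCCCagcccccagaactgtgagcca
TRAF2 window at CCDC183, gained, chr9:136795957-136796157: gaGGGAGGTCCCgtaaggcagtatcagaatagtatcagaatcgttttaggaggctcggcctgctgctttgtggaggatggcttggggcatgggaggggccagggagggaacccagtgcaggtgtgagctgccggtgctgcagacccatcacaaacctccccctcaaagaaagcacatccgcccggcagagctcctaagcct
BIRC3 promoter, chr11:102317343-102317483: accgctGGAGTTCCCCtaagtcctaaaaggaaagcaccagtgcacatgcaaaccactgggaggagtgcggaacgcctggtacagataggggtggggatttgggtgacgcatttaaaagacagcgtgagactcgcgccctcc
TRAF3 promoter, chr14:102777407-102777448: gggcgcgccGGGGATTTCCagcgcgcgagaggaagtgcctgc
The TRAF2, PRR5L and both MAP3K14 intron sequences hold an intact match, as does the MAP3K14 3′ end, while the BIRC3 upstream sequence holds neither motif. The same 10 bases, GGGACTTCCC, occur at the MAP3K14 3′ end and in the gained site downstream of TRAF2. Another match, GGAGTTCCCC, is shared by the gained site upstream of BIRC2 and the BIRC3 promoter. A match describes letters in the reference and does not show that a factor was bound. The window of the TRAF2 intron site also holds 1 NF-kB match that lies in an annotated untranslated region and is not shown.

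Depth was unequal between the libraries. As read from the deposited values, the background of a list was a pileup of 1.85 to 3.59 reads, and the lists held between 195315 and 228644 peaks on chromosomes 1 to 22 and X. A peak that is missing from a list fell below the caller's threshold in that library, which is not the same as closed chromatin. In bulk cells, more cells with an open site and a more open site in each cell cannot be told apart. The 6 luminal or HER2 marker genes checked (ERBB2, GRB7, KRT8, KRT18, EPCAM and TFAP2A) each had a promoter site in all 4 lists, between the 95.8th and 100th percentile of the list. Of the 6 genes of other cell types, the leukocyte genes PTPRC and CD3E had no promoter site in all 4 lists and neither had PECAM1, whereas CDH5, COL1A1 and VIM had such sites, at their best between the 84.4th and 93.3rd percentile. The methods describe these libraries as biological replicates of a cell line, and P-values below set differences against the spread between them. In the limma fits that spread was largely pooled over all shared sites. The weight of the pooled spread was 32.8 prior degrees of freedom in the main fit. An SE or limma p-value therefore rests only in part on the libraries at its own site.

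Accessibility near the 10 genes changed at individual sites in both directions, with shares of changed sites close to those of all sites. Sites were called gained when they were found in each TWEAK list and in no untreated list. There were 18 gained sites among the 402, or 4.48%, beside 3.6% of all sites. Lost sites, with the reverse pattern, numbered 16, or 3.98%, beside 3.79% of all sites. A further 176 sites, 43.8% against 42.8% of all sites, had a peak in all 4 lists and are called shared. The remaining 192 sites were not tested, namely 61 with a peak in 3 lists, 25 in another combination of 2 lists and 106 in a single list.

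Shared sites were compared by the rank of their value within each list, which does not depend on depth in the way the value itself does. Ranks were turned into normal scores (the position the rank would have on a standard normal scale) and fitted with limma over all 131751 shared sites, with Benjamini-Hochberg adjustment over all of them. Near the members, 6 of 176 shared sites rose with TWEAK, or 3.41%, beside 3.87% of all shared sites. Another 5 fell, or 2.84%, beside 4.75% of all. Both shares lie near or below the background. At an unadjusted limma p under 0.05 the numbers were 9 and 18, beside 7.34% and 14.6% of all shared sites. Over the whole genome 44.9% of the calls were higher with TWEAK, and this was 57.2% when ranks were taken among shared sites alone. That alternative called 9 member sites higher and 3 lower, beside 6.06% and 4.53% of all shared sites. On the log2 scale of pileup over background without further scaling, where the median of all shared sites was shifted upward by 0.14, 87.6% of all calls were higher, and 10 member sites rose and 0 fell by limma, beside 8.05% and 1.14% of all, or 26 and 4 at an unadjusted p under 0.05, beside 16.2% and 3.68%. Both TWEAK ranks lay above both untreated ranks at 29 of the 176 sites, or 16.5%, beside 15.8% of all. The opposite order was found at 63, or 35.8%, beside 35.4% of all. The median score difference was −0.09 over the members and −0.08 over all shared sites.

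**Figure D1:**
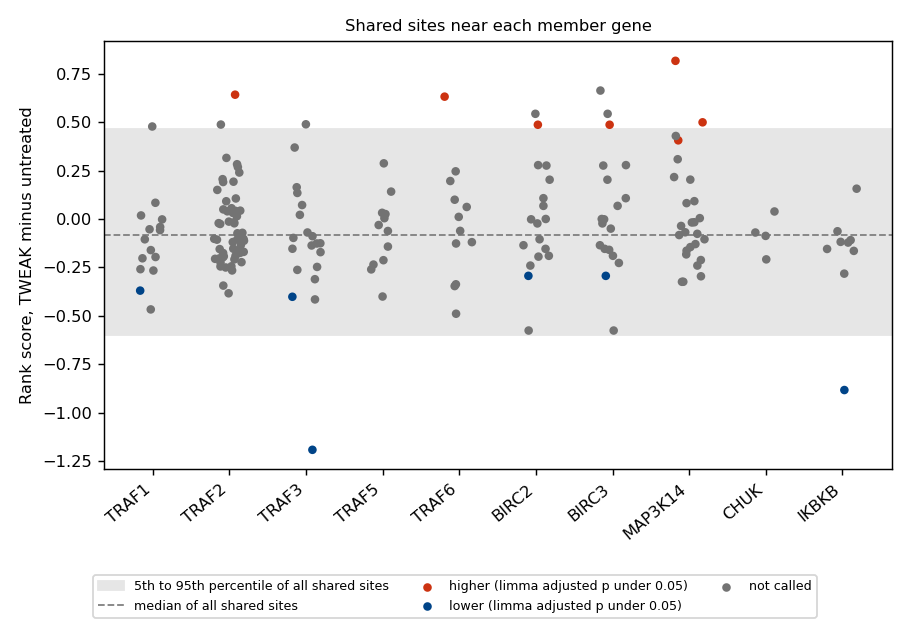
Each point is a shared site, with its difference in rank score (TWEAK minus untreated, in normal-score units) on the y axis and the member gene within 100 kb on the x axis; sites near both BIRC2 and BIRC3 appear under each. The 6 rising sites (red) belong to TRAF2, TRAF6, BIRC2 and BIRC3 (1 shared site), and MAP3K14 (3), and most grey points lie inside the band that holds the 5th to 95th percentile of all shared sites.

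The share of each list's peaks that lay within 100 kb of a member was higher in both TWEAK libraries. It was 0.129% (268 peaks) and 0.128% (292 peaks) in untreated replicates 1 and 2, and 0.137% (300 peaks) and 0.143% (279 peaks) in TWEAK replicates 1 and 2. The groups did not overlap, with means of 0.128% ± 0.000660 and 0.140% ± 0.00385 (SD, n = 2 each). The difference was 0.0119 percentage points (two-sided exact permutation test, p = 0.333), and 0.333 is the smallest p that 2 against 2 libraries can give. As plain numbers of peaks the groups overlapped.

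By gene, BIRC2, BIRC3 and CHUK had more peaks in each TWEAK list than in either untreated list, and TRAF5 had fewer. Of all 19970 protein-coding genes, 9.15% had more peaks in each TWEAK list and 23.9% had fewer, and BIRC2 and BIRC3 have most of their sites in common, so the counts of 3 and 1 among 10 genes are a description. BIRC2 had 26 and 25 peaks untreated and 32 and 33 with TWEAK. CHUK had 5 and 7 untreated and 10 and 8 with TWEAK. TRAF5 had 22 in each untreated list and 17 in each TWEAK list. The other 6 genes overlapped between groups.

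TRAF2, an adaptor that binds the cIAPs, held the rising site with the smallest adjusted p of the 176. This site (chr9:136882497-136883026) lies in the first part of the gene, 864 bp after the gene start and 585 bp from the nearest start site. It ranked at the 86.7th and 85.5th percentile in untreated replicates 1 and 2, and at the 95.7th and 95.8th in TWEAK replicates 1 and 2. The pileup over the library's background was 32.6-fold and 33.1-fold untreated, and 73.7-fold and 83.4-fold with TWEAK. Both TWEAK libraries were thus well above both untreated libraries, and the libraries of a group lay close together. The TWEAK mean of the fold over background was 2.39 times the untreated mean, and the score difference was 0.64 ± 0.09 (SE, n = 2 each; limma, Benjamini-Hochberg adjusted p = 1.68e-06).

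The next site along the gene (chr9:136883381-136884017), 1830 bp after its start, was missing from untreated replicate 1, at the 37.4th percentile in untreated replicate 2 and at 66.9 and 61.0 with TWEAK. It had a peak in only 3 lists, so it has no test, and it was chosen after its values were seen. Another shared site at chr9:136884788-136885358, 3172 bp after the gene start, with an NF-kB match, was 43.8-fold and 41.6-fold over background untreated and 60.4-fold and 68.2-fold with TWEAK. The groups did not overlap, but this site did not pass the test (score difference 0.24 ± 0.09, limma adjusted p = 0.0775). The best-ranked TRAF2 promoter site (chr9:136886112-136886634) ranked between the 97.1st and 98.0th percentile in all 4 lists, and here the groups overlapped. TRAF2 had 119 sites in its window, the most of any member, of which 56 were shared, 4 gained and 4 lost.

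The TRAF2 gained sites lay outside the gene. The best ranked was the intergenic site chr9:136932028-136932530, with the 66.9th and 64.1st percentile in TWEAK replicates 1 and 2. The next was in an intron of LCN12 at chr9:136950408-136950945, at 60.2 and 59.8, but a peak of a list that lacks it lay 127 bp away. The intergenic site chr9:136934439-136934951, one of those with the sequence GGGACTTCCC, ranked at 51.8 and 37.7. The last, within 24 bp of a CCDC183 start site, was weak, at 16.4 and 12.3. Thus 3 of the 4 reached the upper part of a TWEAK list, while the 4 lost sites of the window, in or near CCDC183, RABL6 and FBXW5, stayed at or below the 33.5th percentile in both untreated lists.

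TRAF1, an adaptor without the RING domain found in most other TRAFs, had a site that was strong in both TWEAK lists and weak or missing in the untreated lists. This site (chr9:120925999-120926795) lies 1 bp from an internal TRAF1 start site and 2924 bp after the gene start. It was at the 6.15th percentile in untreated replicate 1, absent from untreated replicate 2, and at the 80.3rd and 79.5th percentile in TWEAK replicates 1 and 2. Its pileup was 3.07-fold over background in untreated replicate 1, and 26.2-fold and 30.3-fold in the TWEAK libraries. It had a peak in only 3 lists, so the fit did not include it and it has no test, and it was chosen after its values were seen. Its window holds 1 AP-1 match, in an annotated untranslated region. A neighbouring shared site in a TRAF1 intron (chr9:120924540-120925082), also with an AP-1 match and also chosen after its values were seen, ranked at 45.7 and 40.8 untreated and at 58.1 and 66.0 with TWEAK, and did not pass the test (limma adjusted p = 0.119).

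The main TRAF1 promoter site (chr9:120928885-120929403) ranked at 75.6 and 71.4 untreated and at 66.2 and 66.8 with TWEAK, and was not called (limma adjusted p = 0.391). The only called site in the TRAF1 window fell, and it was an intron of PSMD5, 95705 bp beyond the TRAF1 start (chr9:120833196-120833721). It was 74.2-fold and 82.8-fold over background untreated and 58.9-fold and 61.7-fold with TWEAK, with no overlap between groups (score difference −0.37 ± 0.08, limma adjusted p = 0.00238). Of 37 sites in the window, 15 were shared, 2 gained and 2 lost. Both gained sites were in PHF19 introns, and the better one (chr9:120886456-120887072) ranked at 66.2 and 59.8 in the TWEAK lists. Of the lost sites, 1 lay within TRAF1 (chr9:120913699-120914203), at 27.2 and 22.8 in the untreated lists.

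TRAF3, the adaptor that holds NIK in the degradation complex, had no gained site among 59 sites and no rising site among the 20 shared, also at an unadjusted limma p under 0.05. Its single shared promoter site (chr14:102777188-102777769), with 2 NF-kB matches in its window, was 11.2-fold and 12.1-fold over background untreated and 16.7-fold and 20.0-fold with TWEAK. The groups did not overlap, yet the site did not pass the test (score difference 0.16 ± 0.14, limma adjusted p = 0.537). Adjacent sites fell at 2 positions, both in an intron of CDC42BPB, a kinase gene next to TRAF3. The stronger (chr14:102949598-102950156) ranked at 87.6 and 87.9 untreated and at 78.7 and 76.5 with TWEAK (score difference −0.40 ± 0.10, limma adjusted p = 0.00916). Its call was lost under 4 of 11 alternatives, among them log2 pileup over background (limma adjusted p = 0.126). Leaving out untreated replicate 1, untreated replicate 2, TWEAK replicate 1 or TWEAK replicate 2 gave score differences of −0.41, −0.39, −0.44 and −0.36. The weaker (chr14:102948702-102949439) ranked at 47.4 and 54.8 untreated and at 35.4 and 2.52 with TWEAK, lowest in TWEAK replicate 2. Its limma adjusted p was 0.0442 (score difference −1.19 ± 0.38), and it was 0.133 and 0.264 without untreated replicates 1 and 2. Without TWEAK replicate 2 the score difference was −0.40 (limma adjusted p = 0.494), and without TWEAK replicate 1 it was −1.98 (limma adjusted p = 0.000332). The call was lost under 7 of 10 alternatives, also with ranks among shared sites (0.0612), quantile-normalised log2 values (0.0781), log2 pileup (0.183) and quantile-normalised log2 pileup (0.0733).

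TRAF5, an adaptor that works alongside TRAF2, was the member with more lost than gained sites by the widest margin, with 5 lost and 0 gained among 32 sites. Of the lost sites, 4 lay in TRAF5 introns. The best ranked (chr1:211336387-211336909) was at 33.1 and 46.5 in untreated replicates 1 and 2, and the next (chr1:211339454-211340063) at 33.1 and 33.5. None of the 5 was above the 50th percentile in both untreated lists. No shared TRAF5 site was called by limma, with 0 higher and 2 lower at an unadjusted p under 0.05. The largest fall in rank without overlap was in a TRAF5 intron (chr1:211349658-211350175), at 66.6 and 67.7 untreated and 44.9 and 58.6 with TWEAK (limma adjusted p = 0.144). Its pileup over background was 12.5-fold and 13.9-fold untreated and 7.60-fold and 14.1-fold with TWEAK, so the groups overlapped on that scale. The only shared site at which both TWEAK ranks were above both untreated ranks (chr1:211407641-211408177, in LINC00467) was at 50.3 and 65.0 untreated and 71.1 and 66.0 with TWEAK (limma adjusted p = 0.291).

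TRAF6, an E3 ubiquitin ligase of Toll-like and interleukin receptor signalling, had 25 sites, of which 12 were shared, 0 gained and 1 lost. A rising site lay far from the gene, in an intron of PRR5L, 89255 bp beyond the TRAF6 start (chr11:36420738-36421269), and its window holds an AP-1 match. It ranked at 38.0 and 43.8 untreated and at 66.2 and 65.1 with TWEAK, with a mean fold over background 2.59 times higher. The groups were clearly apart (score difference 0.63 ± 0.19, limma adjusted p = 0.0272), but the call was lost without untreated replicate 1 (0.149), TWEAK replicate 1 (0.0641) or TWEAK replicate 2 (0.108). The lost site, near a PRR5L start site, was weak.

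**Figure D2:**
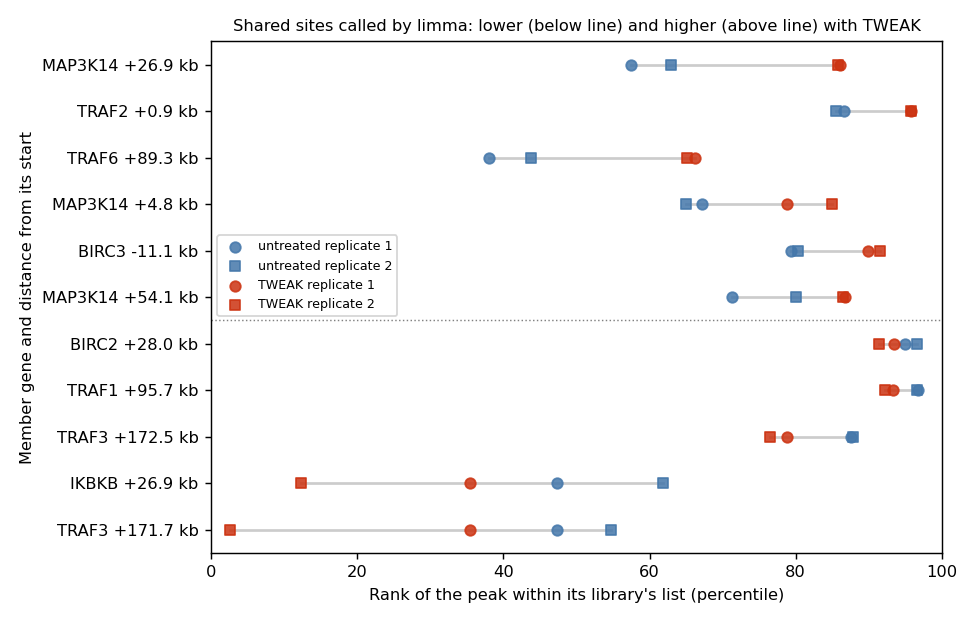
The 11 shared sites called by limma, named by member gene and distance from its start; the x axis is the rank percentile of the site's peak within each library's list. At the 6 rising sites (above the dotted line) both TWEAK libraries (red) lie to the right of both untreated libraries (blue), and at the 5 falling sites to the left. The sites were chosen by the test on these same ranks, so this separation is no further support.

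BIRC3 and BIRC2, which encode cIAP2 and cIAP1 and lie side by side on chromosome 11, had a rising site upstream of BIRC3 and gained sites around both gene starts. The rising site (chr11:102306168-102306707) is intergenic, 11066 bp before the BIRC3 start. It ranked at 79.4 and 80.4 untreated and at 89.9 and 91.5 with TWEAK. Its pileup was 21.7-fold and 24.6-fold over background untreated, and 45.6-fold and 58.5-fold with TWEAK. Groups did not overlap, the mean was 2.25 times higher, and the score difference was 0.49 ± 0.10 (limma adjusted p = 0.000792).

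The BIRC3 promoter itself (chr11:102317159-102317717), which holds an NF-kB match, was among the strongest peaks of every list, at the 97.7th and 97.9th percentile untreated and the 98.7th in each TWEAK list. It was 85.6-fold and 100.2-fold over background untreated, and 114-fold and 127-fold with TWEAK. Both TWEAK libraries were the higher ones, but the site did not pass the test (score difference 0.20 ± 0.08, limma adjusted p = 0.0962). On either side of it lay a gained site. The one 710 bp before the gene start (chr11:102316517-102317024) ranked at 53.2 and 27.3 in TWEAK replicates 1 and 2, with an untreated peak 172 bp away. The one 1192 bp after the start (chr11:102318426-102318931), with an AP-1 match, was weaker, at 25.5 and 31.2.

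Near the BIRC2 start, gained sites lay 1073 bp and 3156 bp before it. The nearer (chr11:102345881-102346388), with 2 NF-kB matches, ranked at 51.8 and 57.3 in TWEAK replicates 1 and 2, that is 9.12-fold and 13.5-fold over background. Untreated peaks came no closer to it than 555 bp. The farther (chr11:102343805-102344460) ranked at 29.2 and 47.4. The BIRC2 promoter (chr11:102346926-102347446) ranked at 97.0 and 96.4 untreated and at 94.2 and 96.3 with TWEAK. Both TWEAK ranks were below both untreated ranks, and the site was not called (limma adjusted p = 0.282). In pileup over background the groups overlapped at this promoter. Within BIRC2, an intron site 27988 bp after the start (chr11:102374932-102375449) fell from 94.9 and 96.5 to 93.4 and 91.4 (score difference −0.29 ± 0.09, limma adjusted p = 0.0259). That call was lost under 3 of 11 alternatives, among them log2 pileup over background (limma adjusted p = 0.455). Leaving out untreated replicate 1, untreated replicate 2, TWEAK replicate 1 or TWEAK replicate 2 gave score differences of −0.38, −0.20, −0.36 and −0.22.

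Both windows together held 5 gained sites, of which 4 were in reach of BIRC3 and all 5 in reach of BIRC2. They also held 2 lost sites, in reach of BIRC3 and within 1 kb of start sites of YAP1, a transcriptional co-activator gene in the same region. The remaining gained site was in an intron of TMEM123 (chr11:102453872-102454423), at 42.8 and 27.3. BIRC2 had 42 sites in its window and BIRC3 had 40.

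MAP3K14, the gene of NIK, had the most rising sites of the members, 3 of 26 shared sites, with 0 falling by limma and 1 lower at an unadjusted p under 0.05, where 3.87% of all shared sites rose and 4.75% fell. The site with the largest rise of the 176 (chr17:45289835-45290366) lies in a MAP3K14 intron 26932 bp after the gene start and 610 bp from an internal start site. It ranked at 57.5 and 63.0 in untreated replicates 1 and 2 and at 86.1 and 85.7 in TWEAK replicates 1 and 2. Its pileup was 9.20-fold and 11.6-fold over background untreated, and 35.7-fold and 41.2-fold with TWEAK. The groups were far apart, with a mean 3.69 times higher with TWEAK (score difference 0.82 ± 0.12, limma adjusted p = 1.16e-05). Its sequence holds the NF-kB match GGGGCTTTCC.

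A site nearer to the start (chr17:45311895-45312436), in an intron 4843 bp after it and with an AP-1 match, ranked at 67.2 and 65.0 untreated and at 78.7 and 84.9 with TWEAK. Its pileup rose from 12.8-fold and 12.5-fold to 24.3-fold and 39.5-fold, so TWEAK replicate 2 was the higher of the pair (score difference 0.50 ± 0.12, limma adjusted p = 0.00742, and 0.159 without that library). The site at the 3′ end (chr17:45262654-45263169) overlaps the end of MAP3K14 and its antisense gene MAP3K14-AS1, 560 bp from a start site of SPATA32. It ranked at 71.3 and 79.99 untreated and at 86.8 and 86.4 with TWEAK, with a mean 2.04 times higher (score difference 0.41 ± 0.11, limma adjusted p = 0.0147, and 0.27 with adjusted p = 0.257 without untreated replicate 1). At all 3 sites the groups did not overlap, which adds nothing to calls made on the same ranks.

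The best-ranked MAP3K14 promoter site (chr17:45317051-45317571), at the gene start, did not rise. It ranked at 93.7 and 93.4 untreated and at 91.9 and 91.1 with TWEAK, and did not pass the test (limma adjusted p = 0.324). Both TWEAK ranks lay above both untreated ranks at 9 of the 26 shared sites of the window, and below at 6, beside 15.8% and 35.4% of all. Gained sites numbered 3, in an ARHGAP27 intron (54.6 and 45.3 in the TWEAK lists), in FMNL1-DT (40.6 and 27.3) and in a MAP3K14 intron (46.8 and 17.9). The lost site overlapped a coding exon of MAP3K14 (chr17:45270747-45271268), at 35.6 and 43.8 in the untreated lists.

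**Figure D3:**
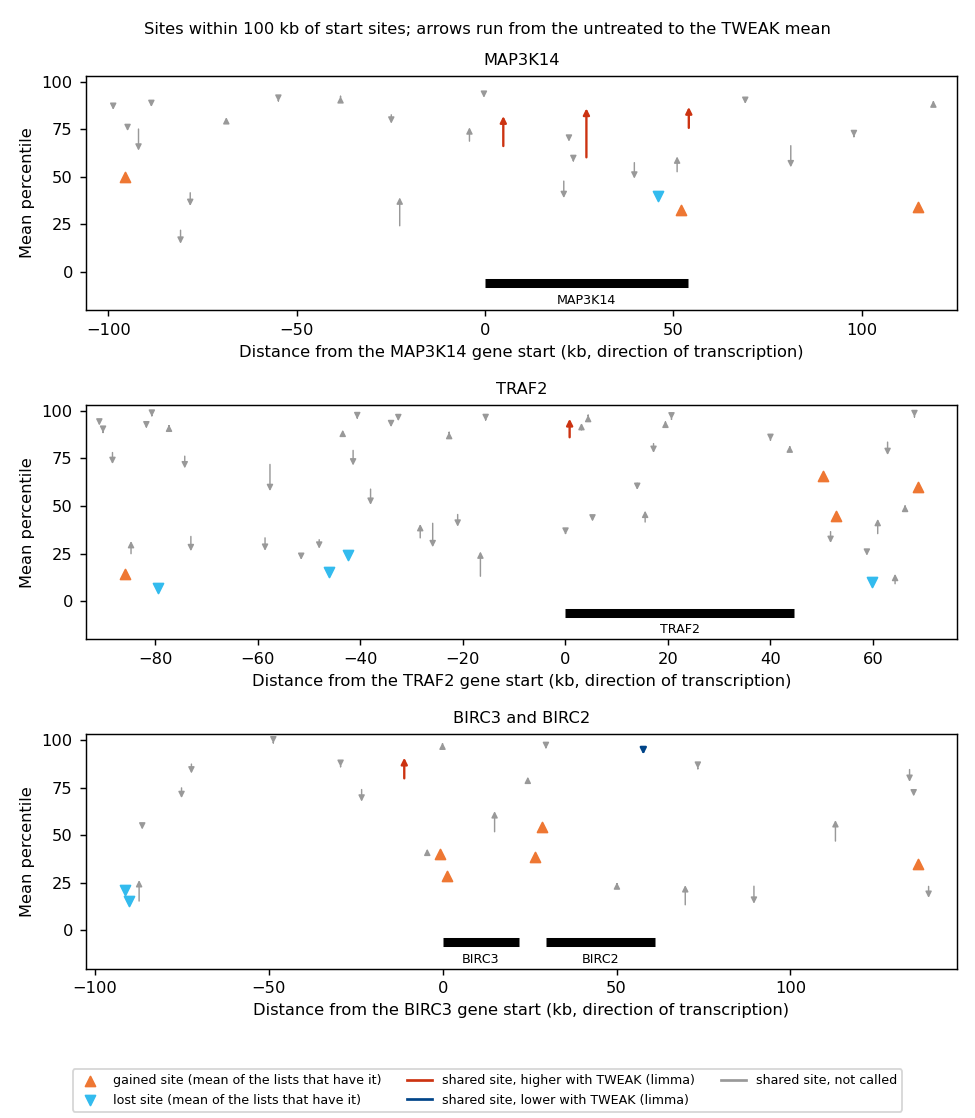
Sites around MAP3K14, TRAF2 and the BIRC3 and BIRC2 pair, with distance from the gene start on the x axis (kb, in the direction of transcription) and mean rank percentile on the y axis; arrows run from the untreated to the TWEAK mean of a shared site, and triangles mark gained and lost sites. The 3 red arrows of MAP3K14 lie within or at the end of the gene (black bar), the red arrow of TRAF2 at its start and that of BIRC3 about 11066 bp before its start, between many grey arrows of little length.

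Around the IκB kinase genes no shared site rose, also at an unadjusted limma p under 0.05. CHUK, which encodes IKKα, had the smallest window, with 11 sites of which 4 were shared, 3 gained and 0 lost. The best gained site (chr10:100183420-100183929) was in an intron of the neighbouring gene ERLIN1 and ranked at 65.4 and 62.1 in TWEAK replicates 1 and 2. Another lay 508 bp from a CHUK start site (chr10:100228581-100229088) and was weaker, at 32.5 and 27.3, with a peak of a list that lacks it 279 bp away. The CHUK promoter (chr10:100229362-100229872) ranked at 86.1 and 85.5 untreated and at 88.0 and 85.2 with TWEAK, so the groups overlapped there. The largest fall in rank without overlap, at a CWF19L1 start site (chr10:100267415-100267959), was from 66.0 and 67.7 to 57.0 and 61.0 (limma adjusted p = 0.455). Its pileup over background was 12.3-fold and 13.9-fold untreated and 10.6-fold and 15.2-fold with TWEAK, so the groups overlapped on that scale. No CHUK site had both TWEAK ranks above both untreated ranks.

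IKBKB, which encodes IKKβ, had 19 sites, of which 9 were shared, 1 gained and 0 lost. The gained site was intergenic, nearest to PLAT (chr8:42210434-42210955), with an NF-kB match, at 21.4 and 34.6 in the TWEAK lists. An intron site 26881 bp after the IKBKB start (chr8:42297933-42298517) fell from 47.4 and 61.8 to 35.4 and 12.3 (score difference −0.88 ± 0.28, limma adjusted p = 0.0453). The adjusted p of this site rose to between 0.0859 and 0.433 without untreated replicate 1, untreated replicate 2 or TWEAK replicate 2, and without the last of these the score difference was −0.49. The call was also lost with ranks among shared sites (0.0597), quantile-normalised log2 values (0.0683), log2 pileup (0.196) and quantile-normalised log2 pileup (0.0639), in all under 7 of 10 alternatives. The IKBKB promoter (chr8:42271033-42271560) ranked at 73.8 and 79.6 untreated and at 78.1 and 64.1 with TWEAK, with the groups overlapping.

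**Figure D4:**
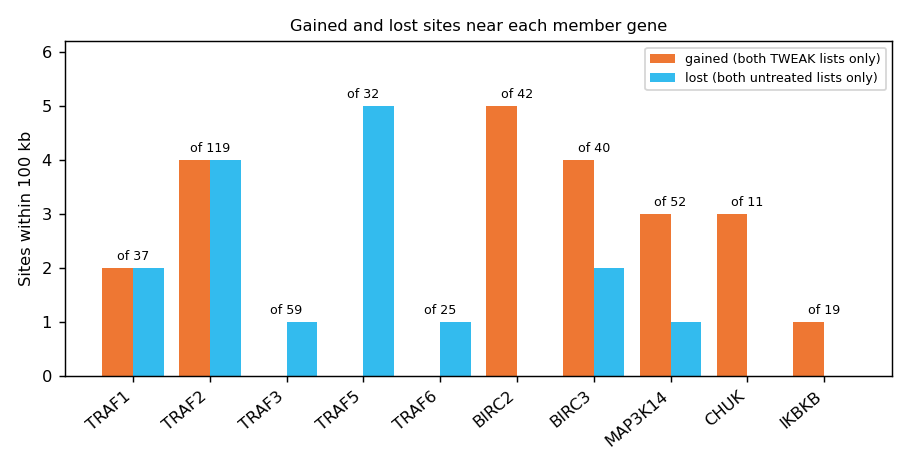
Numbers of gained sites (orange) and lost sites (blue) within 100 kb of each member gene, with the total number of sites of the window above the bars; sites near both BIRC2 and BIRC3 count under each. TRAF5 has 5 lost and 0 gained sites, whereas BIRC2 has 5 gained and 0 lost and CHUK has 3 gained and 0 lost.

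For gained sites the lower of the 2 TWEAK percentiles ran from 11.2 to 64.1 with a median of 27.3, beside 25.5 for all gained sites, and 5 of the 18 were above the 50th percentile in both TWEAK lists. For lost sites the lower of the 2 untreated percentiles ran from 3.28 to 35.6 with a median of 17.4, beside 15.1 for all lost sites, and 0 of 16 were above the 50th percentile in both lists. The share above the 50th percentile was not counted over all gained or all lost sites, so these counts have no background. Of the gained sites, 13 had no peak within 500 bp in a list that lacks them, or 3.23% of the member sites beside 2.61% of all sites. The same held for 11 of the lost sites, or 2.74% beside 2.5%.

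Every member had at least 1 shared site within 1 kb of a start site, and none of the best-ranked of these was called. The called rising TRAF2 site and the MAP3K14 intron site with the largest rise also lie within 1 kb of a start site. They did not rank best among such sites of their genes. Those of BIRC3, TRAF2, TRAF6 and BIRC2 ranked between 94.2 and 98.7 in every list. BIRC3 was the highest of the 10 in untreated replicate 1 and in both TWEAK lists, and TRAF2 in untreated replicate 2, at 98.0 beside 97.9 for BIRC3. MAP3K14 and CHUK followed at between the 85.2nd and 93.7th percentile. TRAF1, IKBKB and TRAF3 lay between 63.3 and 79.6 and overlapped one another. TRAF5 was the lowest, at 47.4 and 59.3 untreated and 46.8 and 43.0 with TWEAK, and lay below the range of every other member. This TRAF5 site is in an intron, 762 bp from the nearest start site and 1230 bp after the gene start. The site that overlaps the TRAF5 start itself (chr1:211326238-211327145) was missing from untreated replicate 2 and ranked at 15.1 in untreated replicate 1 and at 40.6 and 7.37 with TWEAK. Sites within 1 kb of a start site of any protein-coding gene made up 132 of the 402 member sites, or 32.8%, against 16.2% of all sites. The windows were drawn around start sites of the members, and these sites include those at start sites of neighbouring genes. The reason for the higher share was not tested.

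**Figure D5:**
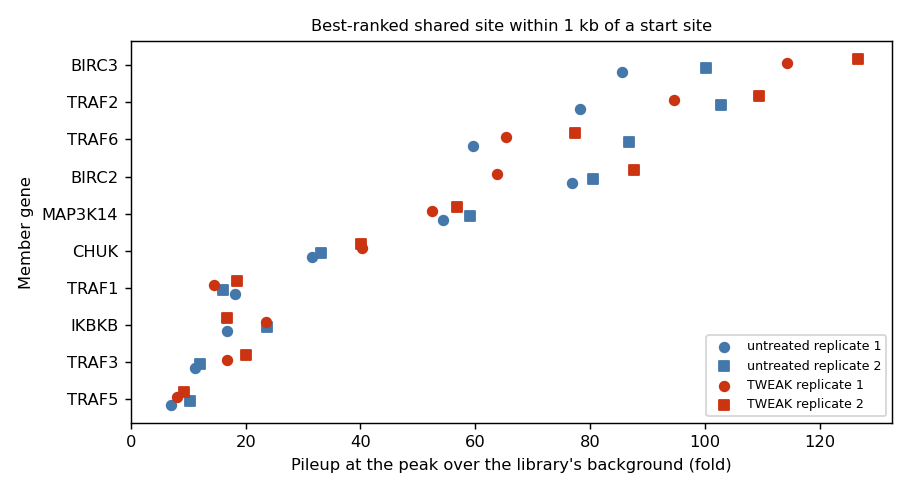
The best-ranked shared promoter site of each member, with the pileup at the peak divided by the library's background on the x axis (fold) and 1 point for each library. BIRC3 runs from 85.6-fold to 127-fold and TRAF2, which is above it in untreated replicate 2, from 78.3-fold to 109-fold, while TRAF5 runs from 6.97-fold to 10.3-fold; red and blue points are apart at BIRC3, CHUK and TRAF3 on this scale and intermingled at the other genes.

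Motif matches were counted up to 100 bases to either side of the midpoint of the best-ranked peak. The NF-kB consensus was found at 29 of the 402 member sites, or 7.21%, beside 6.21% of all sites, and the AP-1 consensus at 31, or 7.71%, beside 9.02%. Of the 6 rising sites, 3 held an NF-kB match and 3 an AP-1 match, and the TRAF2 site held both. Among all rising sites the shares were 26.9% and 26.7%. Of the 18 gained sites, 4 held an NF-kB match (22.2%, beside 20.1% of all gained sites) and 2 an AP-1 match (11.1%, beside 16.6%). None of the 16 lost and 5 falling sites held either. Over all sites the shares were 4.29% and 4.90% for lost sites, and 2.19% and 4.14% for falling sites.

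The other pathway genes give a setting for these counts. Within 100 kb of 18 further genes, among them the receptor TNFRSF12A, the NF-kB subunits, the inhibitor NFKBIA and the deubiquitinases TNFAIP3 and CYLD, there were 966 sites. Of these 49 were gained (5.07%, beside 3.6% of all) and 29 lost (3.0%, beside 3.79%), and of 419 shared sites 18 rose and 18 fell (4.30% each). TNFAIP3, the A20 feedback inhibitor of NF-kB, had 5 gained and 0 lost sites, and 3 of its 15 shared sites rose, with both TWEAK ranks above both untreated ranks at 10. XIAP, a relative of the cIAPs, had 5 gained and 0 lost sites and 2 rising ones. The gene of the receptor itself had 3 gained and 0 lost sites, 1 rising and 2 falling. TRAF4, another TRAF family gene, had 2 gained and 6 lost among 132 sites. Genes with as many rising sites as MAP3K14 were thus TNFAIP3 and REL, each with 3.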

How the data were processed

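Chromatin accessibility was measured by ATAC-seq in 2 untreated and 2 TWEAK-treated SKBR3 libraries, grouped and numbered by their titles. Adaptor trimming (Trimmomatic), alignment to hg38 (Bowtie2), removal of mitochondrial reads (Bamtools) and of duplicates (Picard), and peak calling for each library (MACS2) were done by the authors, as their methods state. Versions, settings, any transposase shift and the step that made every peak 501 bp wide are not given in the sources used here. The deposited value of a peak was read from the values themselves as an uncorrected −log10 p-value of the authors' peak caller: 100% of the values of each list equalled the Poisson tail of a whole pileup, within 0.1 of a step between pileups, against 1 background per list. It depends on depth, so ranks within a list were compared. The study's DiffBind test starts from reads, so it could not be applied to these lists.

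Sites were merged at an overlap of 1 bp on chromosomes 1 to 22 and X. A site's value in a list was that of its best peak. Normal scores of the ranks were fitted with limma 3.58.1 in R 4.3.3 (trended variance, no block, Benjamini-Hochberg adjustment, threshold 0.05). The step was also run on simulated scores with normal noise and shifts put into both TWEAK libraries. Such scores follow the model of the fit, so that run checks the code and not the p-values of these data. Shares of peaks were compared by an exact permutation test. Alternatives were a 50 kb window, a deposited value of at least 5, merging at 250 bp, leaving out each library, other scalings and a replicate block.

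The members, the pathway list, the motifs and the tests were chosen with earlier results of these data known. The rule for named sites took shared sites within 1 kb of a start site of a member (the best ranked in full), every called site, the 3 best-ranked gained and lost sites per member and, without a call, the largest rise and fall without overlap. Beyond it, the weakest gained sites near TRAF2 and BIRC3, 1 further site in TRAF2, 2 in TRAF1 and that at the TRAF5 start were chosen after their values were seen. Not every site the rule took is described. Sequences came from the hg38 reference. Sequences of the best-ranked promoter sites were printed only where they hold a motif match. The rising sites without an NF-kB match or with one outside the printed window were added. Windows were shortened at annotated untranslated regions, and no sequence on chromosome 8 was printed.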

Additional observations from a re-analysis of the deposited data

How the results depend on the processing

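The TRAF2, MAP3K14 (26932 bp after the start) and BIRC3 rising sites passed the limma test under all 11 alternatives, with adjusted p of at most 3.21e-05, 0.000132 and 0.0159. No called site changed direction. Falling sites depended most on the settings. Their number, 5, was 3 with values of at least 5 (4.09% of all shared sites), ranks among shared sites (4.53%), quantile-normalised log2 values (4.02%) or quantile-normalised log2 pileup (4.15%), with 9, 9, 8 and 8 rising (5.35, 6.06, 5.67 and 5.78%), and it was 0 on the unnormalised log2 pileup over background (4 at an unadjusted limma p under 0.05). On that scale, added after seeing the data with the quantile-normalised pileup, 10 sites rose, 87.6% of all calls were higher and the median of all shared sites was shifted by 0.14. With values of at least 5, gained sites numbered 23 and lost sites 4, beside 4.82% and 3.36% of all sites. Leaving out libraries gave 35 to 49 gained sites (35 without untreated replicate 1, 39 without untreated replicate 2, 44 without TWEAK replicate 1, 49 without TWEAK replicate 2), 26 to 49 lost sites (49, 38, 34 and 26 in the same order) and 1 to 8 falling sites (3, 1, 8 and 2). Over all sites the shares moved too, to 6.54, 7.63, 9.09 and 11.6% gained, 15.9, 11.5, 9.29 and 6.56% lost, and 2.15, 1.44, 8.95 and 2.46% falling. A presence pattern over 3 lists is less strict than over 4. The excess of peaks near members ranged from 0.00923 to 0.0147 percentage points. Nothing in the labels pairs the libraries by replicate number. The correlation of deviations was 0.00865, which with 2 pairs cannot show whether libraries of the same number were prepared together. With a replicate block the values were 0.0119 percentage points, 6 rising and 5 falling sites. The other counts stayed within 1.5 times. With 2 libraries a group, weak sites are limited by depth: the lowest pileup in a list was between 7 and 10 reads.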
